A study of Mus musculus with 12 samples.

Results

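Gfap, C4b, Osmr, A2m, Ednrb and Cryab are 6 genes tied to astrocyte reactivity, and they were taken by symbol from the genes listed for hippocampus or cortex of mice lacking the BK channel. They are 6 of the 1017 genes listed in either tissue. C4b, Osmr and Cryab are 3 of the 652 genes listed for hippocampus, Gfap, A2m and Ednrb are 3 of the 561 listed for cortex, and 0 are listed for both. Astrocytes are the glial cells that clear transmitter and potassium from around synapses. After injury, inflammation or seizures they become reactive: they enlarge, build more intermediate filament and change their output of complement, protease inhibitors and cytokine receptors. Gfap, the filament protein, is the classic marker of this state, and signals of the interleukin 6 family acting through the kinase JAK and the transcription factor STAT3 are a well-known route to it.

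RNA was extracted from hippocampus and cortex of C57BL/6 mice, 3 wild type (WT) and 3 BK KO (kcnma1-/-) per tissue, which gave 12 libraries in 4 groups. BK KO mice carried a CRISPR/Cas9 frameshift deletion in Kcnma1, the gene of the pore-forming subunit of the BK potassium channel, in every cell. They came from heterozygous parents, as did the WT mice, and the sequenced mice were described as adult. The study's methods give male BK KO mice of 3 months for its later experiments, without saying whether the sequenced mice were among them. Values per library are taken as FPKM, fragment numbers corrected for transcript length and library size, and the depth of the libraries is unknown.

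Each tissue's table lists only genes that the study called between BK KO and WT on these same libraries. Every fit and p-value below therefore describes selected genes and is no independent test, and a gene that is not listed was not analysed here. In whole tissue, more cells of a type and more RNA per cell cannot be told apart. Defining astrocyte markers such as Aldh1l1, Aqp4 and Slc1a2 are among the genes not analysed here, so the share of astrocytes was not checked.

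Kcnma1 was low in each BK KO library. In hippocampus its FPKM was 11.3, 10.6 and 9.67 in WT and 2.54, 2.82 and 2.81 in BK KO, and in cortex 11.98, 9.82 and 11.8 in WT and 3.09, 2.97 and 2.76 in BK KO. Genes typical of other tissues stood high in some libraries. Of all 561 listed cortex genes, 164 were higher in BK KO and 30.8% were past the threshold given below. Of 20 skeletal muscle genes, the cortex table held 15, each with a lower BK KO mean, and 9 were past it. Their summed FPKM ranged from 31.9 to 96.1 in WT cortex, with WT replicate 1 the highest, and from 9.95 to 12.4 in BK KO cortex, so each WT cortex library was above each BK KO one. Gh, the pituitary growth hormone gene, was singled out after its values were seen: each WT hippocampus library had it at 0, while BK KO replicates 1, 2 and 3 had 0.120, 0.184 and 57.5 FPKM, so that replicate 3 stood apart. Values of the cortex genes without WT replicate 1 and of the hippocampus genes without BK KO replicate 3 are given with each gene.

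The 6 genes lie on 6 chromosomes (GRCm38, GENCODE M21). Gfap is at chr11:102887336-102900912 on the minus strand, C4b at chr17:34728380-34743882 on the minus strand, and Osmr at chr15:6813577-6874969 on the minus strand. A2m is at chr6:121635376-121679227 on the plus strand, Ednrb at chr14:103814625-103844402 on the minus strand, the same chromosome as Kcnma1, and Cryab at chr9:50751325-50756636 on the plus strand. The study's processing notes name the older build mm9, and its tables hold no coordinates. Of 9 short motifs searched on both strands of RefSeq promoters, from 250 bases before to 50 after the start, 2 are shown because they are the letters bound by STAT factors and by AP-1, factors that act downstream of cytokine receptors. Promoter windows (RefSeq, GRCm38.p6) were matched for 3 of the 6 genes: Gfap, Osmr and Ednrb. In the lines below the motif stands in capitals.
Gfap, chr11:102897184-102897212, minus strand, STAT letters TTCNNNGAA: atgggggtgcTTCCAGGAAgtcaggggca
Osmr, chr15:6874293-6874321, minus strand, AP-1 letters TGANTCA: tgccccgtagtTGATTCAtagctggggcg
The Gfap match runs from base -2 to base 7 and the Osmr match from base 4 to base 10 around the RefSeq start used. For both genes that start lies inside the GENCODE span given above, not at its upstream end. The STAT letters occur in 8.3% and the AP-1 letters in 7.81% of the 32851 promoter windows. The Ednrb window held neither, but held the CCAAT letters 2 times, as 37.4% of windows do at least once, and the Osmr window held the GC box letters GGGCGG 2 times (35.7% of windows at least once). The heat shock element (GAANNTTC, in 7.86% of all windows), the TATA box (TATAAA, 13.6%), the CRE (TGACGTCA, 1.79%) and the NF-kB (0.155%) and NFI (0.0365%) consensus sites were in none of the 3 windows. A match is only a match of letters.

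The 6 genes did not move as 1 group. C4b in hippocampus and Gfap and A2m in cortex rose in BK KO, Cryab in hippocampus fell, and Osmr in hippocampus (log2 fold change 0.55) and Ednrb in cortex (-0.44) did not pass the threshold. A gene was counted past the threshold where limma on log2(FPKM + 1) gave an unadjusted p under 0.05 and a log2 fold change beyond 0.58. The 2 limits are the study's, but the study applied them to DESeq results, whose fold changes are on another scale. There all 6 genes passed, Osmr and Ednrb among them. In hippocampus 2 of the 3 genes passed, where 42.6% of all listed genes did, and in cortex 2 of 3 passed, where 30.8% did. The BK KO and WT values of 3 of 3 genes in hippocampus did not overlap, where 79.9% of listed genes did not, and those of 2 of 3 in cortex, where 80.6% did not. With 3 genes a tissue these shares are too coarse to set the genes apart from the other listed ones.

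**Figure D1:**
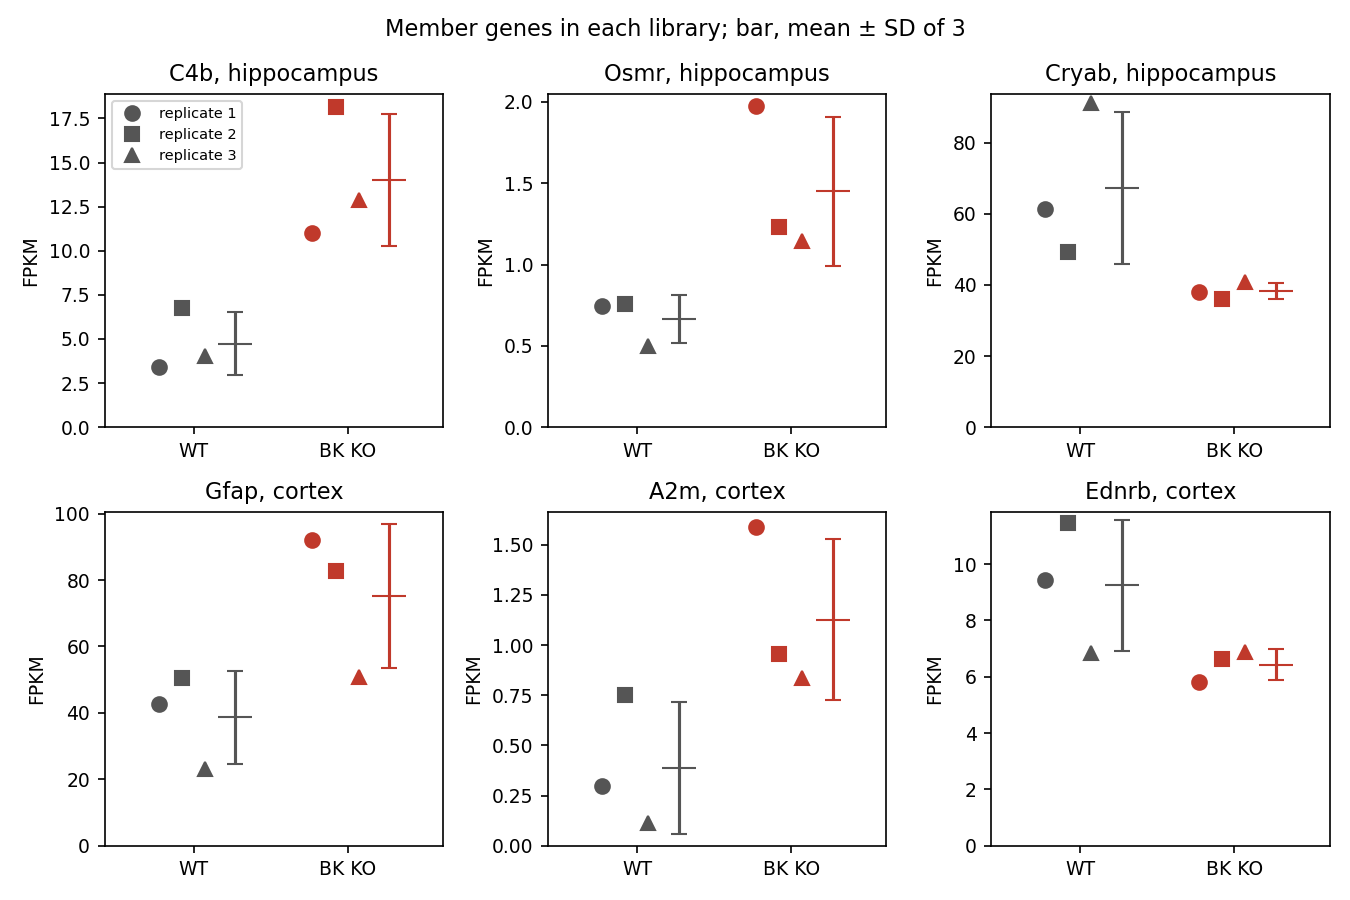
FPKM of each gene in each library, by genotype, with a panel per gene and its tissue. Marker shapes are replicate numbers and bars are the mean ± SD of 3 libraries. The groups overlap for Ednrb, where WT replicate 3 (6.84) lies below BK KO replicate 3 (6.87), and for no other gene shown.

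C4b, which encodes complement component C4, a protein of the classical and lectin cascades that tags targets and synapses for removal, had the largest log2 fold change of the 6 on the log2(FPKM + 1) scale. In hippocampus its FPKM was 3.41, 6.75 and 4.05 in WT and 11.0, 18.2 and 12.9 in BK KO. Each BK KO library was above each WT library, and replicate 2 was the highest of its genotype in both groups. The mean went from 4.74 ± 1.77 (SD, n = 3) in WT to 14.0 ± 3.72 (SD, n = 3) in BK KO, a ratio of 2.96. The log2 fold change was 1.40 (standard error 0.26, 95% interval 0.79 to 2.01, limma p = 0.00103, Benjamini-Hochberg adjusted p = 0.0150 over the 652 listed genes, two-sided exact permutation p = 0.1, the smallest that 3 against 3 can give). It ranked 5 of 652 from the highest. C4b was past the threshold in all 6 fits that each left out 1 library, with log2 fold changes from 1.21 to 1.64, and at 1.44 without BK KO replicate 3. C4a, a close copy, lies nearby at chr17:34809092-34823464, and reads that fit both genes make the C4b level uncertain.

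Osmr, the receptor subunit that pairs with gp130 to bind oncostatin M and signal through JAK and STAT3, was a low gene in hippocampus. Its FPKM was 0.744, 0.756 and 0.497 in WT and 1.98, 1.23 and 1.14 in BK KO. All BK KO libraries were above all WT libraries, and BK KO replicate 1 was the highest. The means were 0.665 ± 0.146 (SD, n = 3) and 1.45 ± 0.458 (SD, n = 3), a ratio of 2.18. The log2 fold change was 0.55 (standard error 0.16, 95% interval 0.17 to 0.92, limma p = 0.0104), under the limit of 0.58 (exact permutation p = 0.1). The scale weighs on this gene, because a pseudocount of 1 is near its level: the log2 fold change was 0.999 with a pseudocount of 0.1 and 1.09 with 0.01, both past the threshold. Without 1 library it ranged from 0.40 to 0.63 and was past the threshold in 4 of 6 fits, those without WT replicate 1 or 2 or BK KO replicate 2 or 3 (0.63 without BK KO replicate 3).

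Cryab, the small heat shock protein alphaB-crystallin, a chaperone made by astrocytes and in quantity by oligodendrocytes, went the other way. In hippocampus its FPKM was 61.4, 49.3 and 91.1 in WT and 38.1, 36.2 and 40.7 in BK KO. No BK KO library reached the lowest WT library, and the WT libraries were spread far more widely than the BK KO ones. The mean went from 67.3 ± 21.5 (SD, n = 3) to 38.3 ± 2.28 (SD, n = 3), a ratio of 0.569. The log2 fold change was -0.75 (standard error 0.22, 95% interval -1.27 to -0.24, limma p = 0.0109, exact permutation p = 0.1). Without WT replicate 3 it was -0.51 and no longer past the limit of 0.58, and without BK KO replicate 3 it was -0.80. Hspb2, another small heat shock gene, overlaps the span of Cryab on the opposite strand (chr9:50751078-50752354), and the library kit keeps no strand, so reads in the overlap cannot be told apart.

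Like most listed genes in hippocampus, oligodendrocyte genes moved in the same direction as Cryab. Of 17 such genes, 3 were listed in hippocampus, all lower in BK KO, and 2 passed the threshold: Opalin, a myelin membrane protein (log2 fold change -0.93, with overlapping groups), and Ugt8a, an enzyme of myelin lipid synthesis (-0.69). The third, Olig2, an oligodendrocyte lineage factor, had -0.56. The median of the 3 was -0.69, and their summed FPKM was 27.9 to 48.0 in WT and 20.6 to 25.7 in BK KO. None of the 3 was at 0 in all libraries, and their part in the Cryab difference was not tested. Over all 652 listed genes, 272 were higher in BK KO and 42.6% passed, so 3 genes are too few to stand apart.

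Gfap, the intermediate filament protein of astrocytes, was one of the most abundant listed genes in cortex, ranking 9 of 561 by mean FPKM. Its FPKM was 42.5, 50.4 and 23.1 in WT and 92.2, 82.6 and 50.9 in BK KO. The groups did not overlap, but BK KO replicate 3 was only just above WT replicate 2. The mean went from 38.7 ± 14.1 (SD, n = 3) to 75.2 ± 21.6 (SD, n = 3), a ratio of 1.95. The log2 fold change was 0.97 (standard error 0.35, 95% interval 0.12 to 1.82, limma p = 0.0317, adjusted p = 0.0512 over the 561 listed genes, exact permutation p = 0.1). Its p was over 0.05 without WT replicate 1 (log2 fold change 1.07), WT replicate 3 (0.64), BK KO replicate 1 (0.80) or BK KO replicate 2 (0.88).

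A2m, alpha-2-macroglobulin, a secreted trap for proteases, was a low gene, ranking 384 of 561 by mean FPKM. In cortex its FPKM was 0.300, 0.753 and 0.112 in WT and 1.59, 0.957 and 0.838 in BK KO. The groups did not overlap, and BK KO replicate 1 was well above the other BK KO libraries. The mean went from 0.388 ± 0.330 (SD, n = 3) to 1.13 ± 0.403 (SD, n = 3), a ratio of 2.90. The log2 fold change was 0.63 (standard error 0.21, 95% interval 0.11 to 1.14, limma p = 0.0244, exact permutation p = 0.1), and 1.51 and 1.83 with pseudocounts of 0.1 and 0.01. Its p was over 0.05 without WT replicate 1 (log2 fold change 0.59), WT replicate 3 (0.48) or BK KO replicate 1 (0.48).

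Ednrb, the endothelin B receptor, which astrocytes carry and through which endothelin promotes their reactivity, had lower values in BK KO on average. In cortex its FPKM was 9.42, 11.5 and 6.84 in WT and 5.80, 6.63 and 6.87 in BK KO. WT replicate 3 fell among the BK KO libraries, so the groups overlapped. The means were 9.24 ± 2.32 (SD, n = 3) and 6.43 ± 0.563 (SD, n = 3), a ratio of 0.696. The log2 fold change was -0.44 (standard error 0.18, 95% interval -0.88 to -0.0019, limma p = 0.0493, exact permutation p = 0.2), short of the limit of 0.58. It was past the threshold in 1 of 6 fits without 1 library, that without WT replicate 3 (-0.62), and was -0.41 without WT replicate 1.

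**Figure D2:**
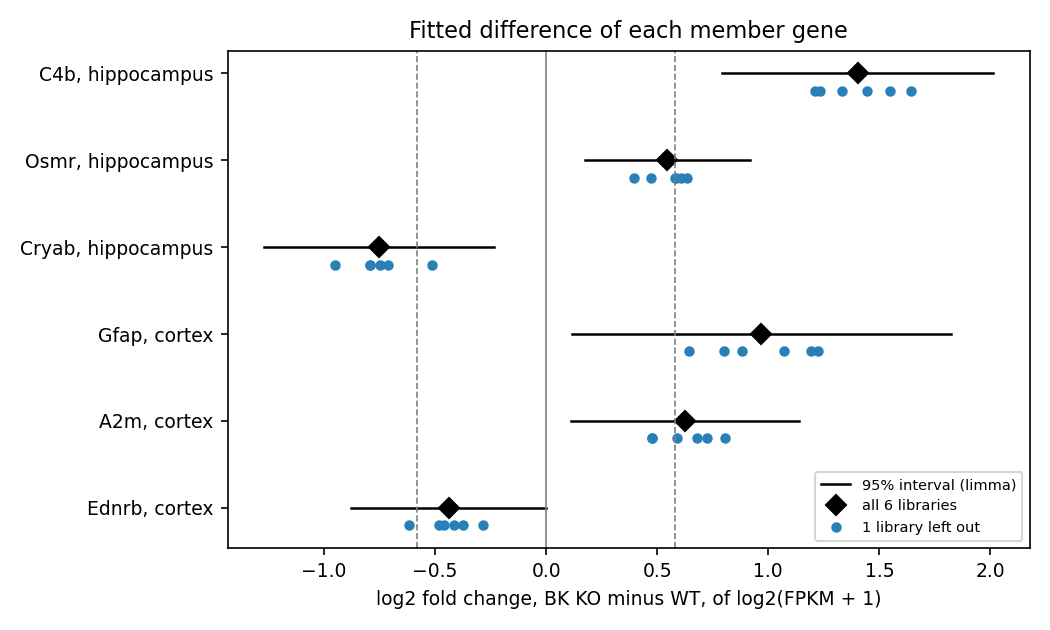
Log2 fold change, BK KO minus WT, of each gene on the log2(FPKM + 1) scale. Diamonds and lines are the limma estimate and 95% interval from all 6 libraries of the tissue, blue points are fits that each leave out 1 library, and dashed lines mark 0.58 in either direction. The points of C4b (1.21 to 1.64) and Gfap (0.64 to 1.22) lie beyond the line, while those of Osmr (0.40 to 0.63), Cryab (-0.95 to -0.51), A2m (0.48 to 0.81) and Ednrb (-0.62 to -0.29) lie on both sides of it.

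In cortex the size of these differences depended on how the libraries were centred. The median log2 fold change of all listed genes was -0.33 in cortex and -0.27 in hippocampus. When each library was centred on the median of its listed genes, the cortex median became -0.08, the log2 fold change of Gfap 1.21, of A2m 0.87 and of Ednrb -0.20, and no gene of the 6 changed sign. In hippocampus the same step gave 1.45 for C4b, 0.59 for Osmr, past the threshold, and -0.71 for Cryab. All listed genes were selected for a genotype difference, and in cortex only 164 of 561 were higher in BK KO. A median of such genes carries that difference too, so library scaling itself was not tested.

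Per length, the order of the levels was the same in each library of a tissue. In hippocampus Cryab (36.2 to 91.1 FPKM) was above C4b (3.41 to 18.2), which was above Osmr (0.497 to 1.98). In cortex Gfap (23.1 to 92.2 FPKM) was above Ednrb (5.80 to 11.5), which was above A2m (0.112 to 1.59). By mean FPKM Cryab ranked 18, C4b 112 and Osmr 430 of 652 in hippocampus, and Ednrb ranked 88 of 561 in cortex. By log2 fold change from the highest, Gfap ranked 10 and A2m 50 of 561 and Osmr 157 of 652, while from the lowest Cryab ranked 59 of 652 and Ednrb 205 of 561.

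**Figure D3:**
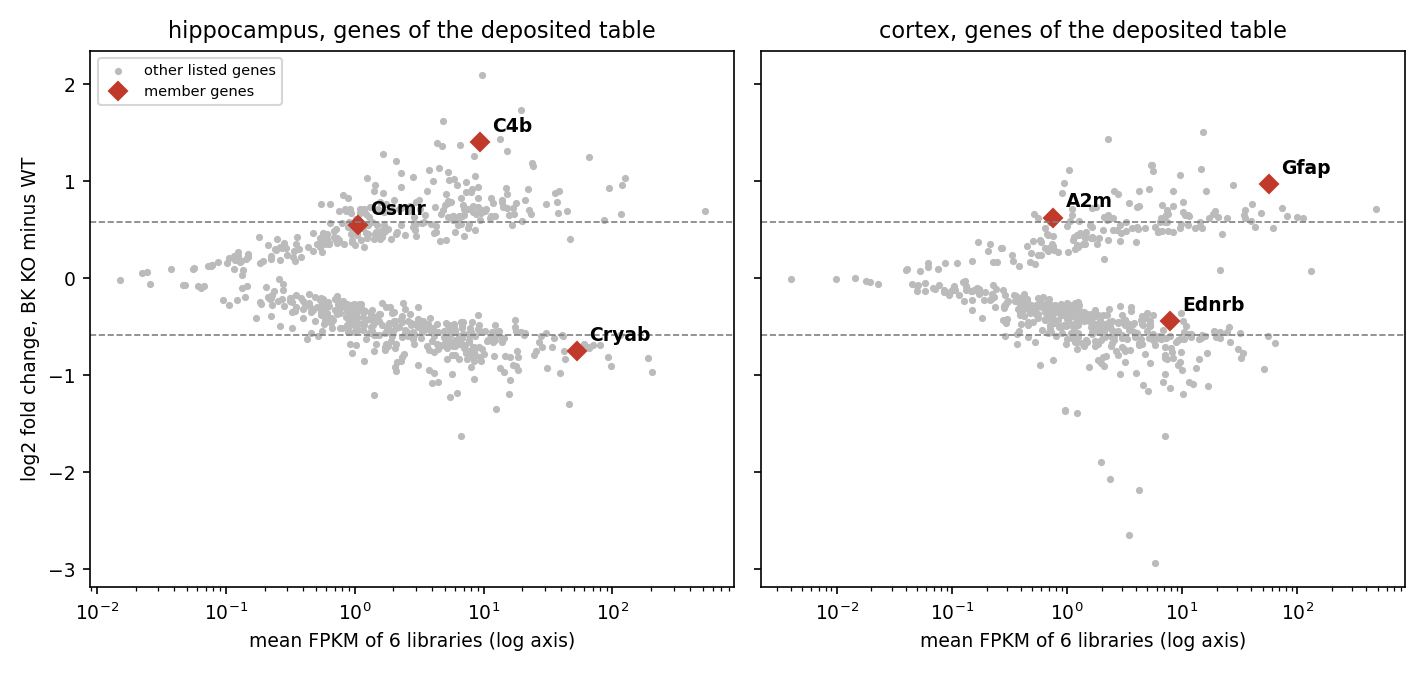
Log2 fold change (BK KO minus WT, log2(FPKM + 1) scale) against mean FPKM over 6 libraries (log axis) for all listed genes of each tissue, with the genes described here as red diamonds. Dashed lines mark 0.58 in either direction. C4b (1.40) and Gfap (0.97) lie near the top of the listed genes, and Ednrb (-0.44) lies between the lines.

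Other genes of the reactive state were few among those listed. Of 38 genes in 3 lists of reactive astrocyte genes (general, endotoxin-type and ischemia-type), 5 were listed in either tissue, 2 of them Osmr and Gfap. Serpina3n, a secreted protease inhibitor, rose in cortex: its FPKM was 7.58, 8.14 and 2.76 in WT and 12.8, 14.1 and 11.9 in BK KO (log2 fold change 1.06). As with Gfap, A2m, Ednrb, Grm3 and Mt2, among others, WT replicate 3 was the lowest WT library and WT replicate 2 the highest. Fkbp5, a co-chaperone of steroid receptors that glucocorticoids induce, rose in hippocampus (log2 fold change 1.32) and in cortex (1.12). Tm4sf1, a membrane protein also found in endothelium, had -0.43 in cortex and did not pass. In each tissue a list had at most 2 listed genes, and the rest were not analysed here.

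The genes of a resting astrocyte list moved in both directions: Grm3 and Slc7a10 fell, while Mt1 and Mt2 were higher. Of 27, 4 were listed in hippocampus and 3 in cortex, with median log2 fold changes of -0.11 and 0.53, against -0.27 and -0.33 over all listed genes. Grm3, a metabotropic glutamate receptor, fell in hippocampus (13.3 ± 1.94 to 8.25 ± 1.66 FPKM, log2 fold change -0.63) and in cortex (14.6 ± 1.19 to 9.45 ± 2.60, log2 fold change -0.60; SD, n = 3 each). Slc7a10, an astrocyte transporter of small neutral amino acids, fell in hippocampus (-0.66), with 13.2, 22.3 and 16.4 FPKM in WT and 10.6, 11.6 and 9.05 in BK KO. Mt2, a metal-binding metallothionein, rose in both tissues (0.69 in hippocampus and 0.72 in cortex). Its relative Mt1 had 0.40 in hippocampus and 0.53 in cortex and did not pass in either. The cortex median is the Mt1 value. The study places both Mt2, which rose, and Grm3, which fell, under astrocyte activation, so the list is no pure measure of the resting state.

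The pathways of the individual genes were followed from fixed lists. Among all listed genes, 42.6% passed in hippocampus and 30.8% in cortex. Of 26 complement genes, 4 were listed in hippocampus (median log2 fold change 0.10). C4b passed, while C3ar1, the C3a receptor (0.41), C1s1, a C1 protease (-0.22), and Cfp, properdin (-0.56), did not. In cortex 3 were listed (median -0.48) and 1 passed: Cfp fell (-0.99, 3.28, 3.50 and 5.66 FPKM in WT against 2.53, 0.878 and 1.48 in BK KO), while C3ar1 had 0.28 and the integrin Itgam -0.48.

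Of 27 genes of gp130 cytokines and STAT3 signalling, 2 were listed in each tissue (median log2 fold change 0.52 in hippocampus and -0.05 in cortex) and 0 of them passed in limma. At an unadjusted p under 0.05 alone, all 4 would count. The study listed every gene at an unadjusted p under 0.05 on these libraries too, but from DESeq. How many of all listed genes fall under it in limma was not counted. The 4 can therefore not be set apart from the other listed genes. In hippocampus Il6ra, the interleukin 6 receptor, stood beside Osmr with a log2 fold change of 0.49. Its FPKM was 1.25, 1.499 and 0.791 in WT and 2.22, 1.80 and 2.09 in BK KO, with no overlap. In cortex the kinase Tyk2 had -0.44 and Bcl3, an NF-kB cofactor, 0.34.

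Of 9 endothelin genes, Ednrb and the other receptor, Ednra (-0.26, groups overlapping), were listed in cortex and neither passed. Cryab was the only 1 of 15 chaperone genes listed in either tissue, Gfap the only 1 of 10 intermediate filament genes, and A2m and Serpina3n the only 2 of 11 protease inhibitor genes. In cortex both of those inhibitors passed.

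**Figure D4:**
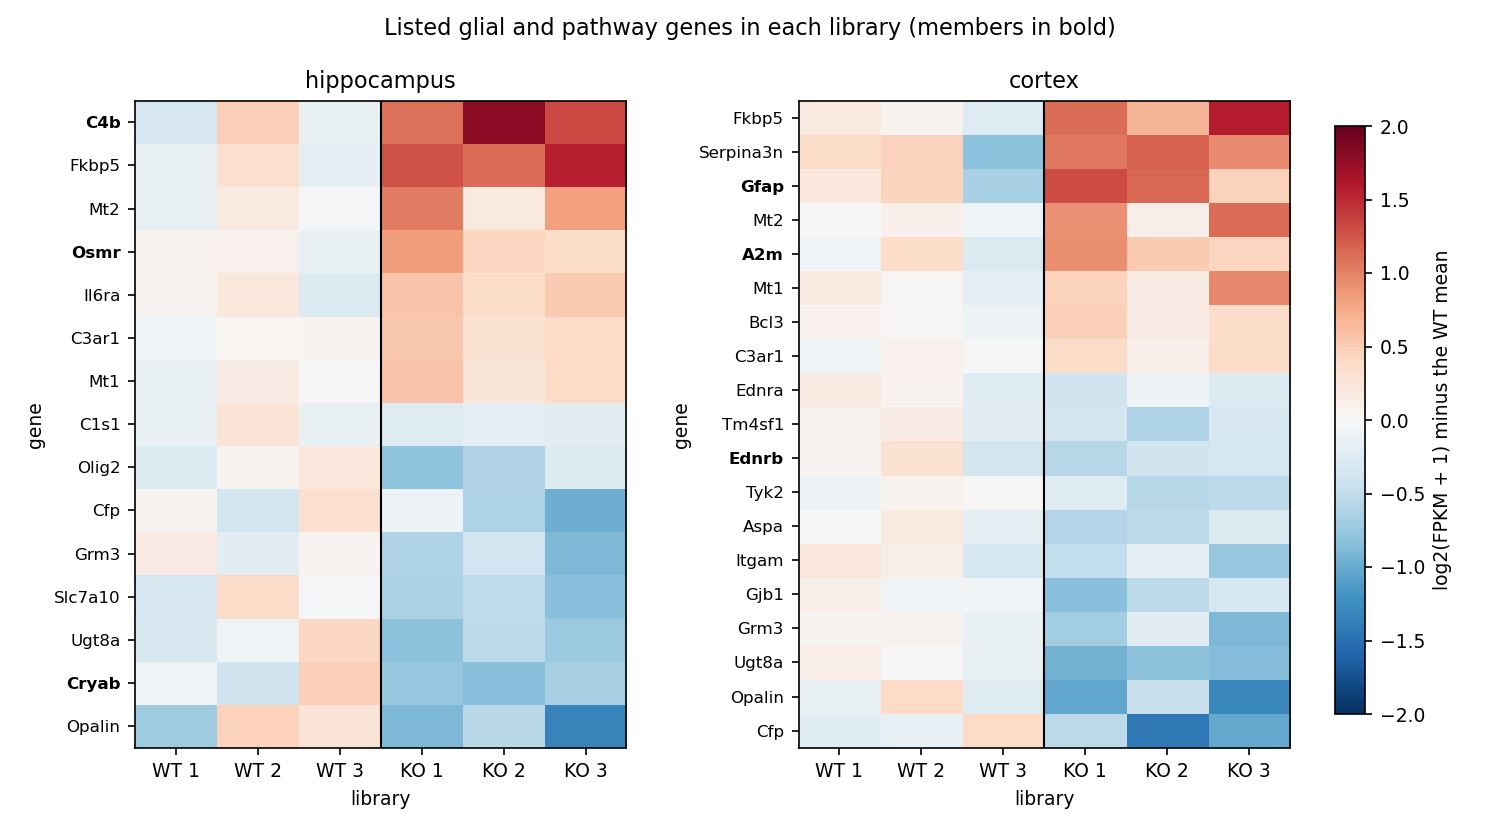
Log2(FPKM + 1) minus the WT mean (colour) for listed genes in each library of hippocampus and cortex, ordered by log2 fold change. The genes come from the astrocyte, complement, cytokine, endothelin, protease inhibitor, chaperone, intermediate filament and oligodendrocyte lists. Bold names are the genes described here. WT replicate 3 in cortex is the lowest (bluest) WT library for most cortex genes shown, Gfap, Serpina3n, A2m and Ednrb among them. The exceptions are C3ar1, Cfp, Tyk2 and Gjb1.

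In WT cortex Gfap, A2m and Ednrb shared 1 library order, with replicate 3 the lowest, replicate 1 between and replicate 2 the highest. That order was not particular to them: Serpina3n, Tm4sf1, Grm3, Mt2, Opalin and Aspa had it too. Its share among all listed genes was not counted. In the other groups the order differed between genes. In cortex BK KO replicate 1 was the highest BK KO library for Gfap and A2m and the lowest for Ednrb, and BK KO replicate 3 was the lowest for Gfap and A2m and the highest for Ednrb. In hippocampus WT replicate 2 was the highest WT library for C4b and Osmr and the lowest for Cryab, and BK KO replicate 2 was the highest for C4b and the lowest for Cryab.

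Markers of further cell types were checked beside these results. In hippocampus 6 of 14 endothelial and pericyte genes were listed, all lower in BK KO (median log2 fold change -0.52), with summed FPKM of 63.5 to 67.4 in WT and 38.9 to 46.9 in BK KO, and only Vtn, the adhesion protein vitronectin, passed (-0.61). In cortex Tek, an endothelial receptor, was the only 1 listed (-0.46, not past the threshold). Of 17 oligodendrocyte genes the cortex table held 4, each with a lower BK KO mean (median -0.72), and Opalin (-0.93) and Ugt8a (-0.88) passed, with summed FPKM of 29.2 to 39.8 in WT and 15.8 to 22.0 in BK KO. Of 15 microglia genes 0 were listed in hippocampus and Itgam alone in cortex, and of 10 choroid plexus and ependyma genes 0 were listed in either tissue. Of 10 neuron genes Gad2, which makes the transmitter GABA, was the only 1 listed and rose in both tissues (1.15 in hippocampus and 0.69 in cortex). Cacna1s, a muscle calcium channel, was the only skeletal muscle gene listed in hippocampus (0.16). None of the listed markers was at 0 in all libraries of its tissue, and their part in the differences of the 6 genes was not tested. Over all listed genes, 272 of 652 in hippocampus and 164 of 561 in cortex were higher in BK KO, and 42.6% and 30.8% passed.

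The study's tables also assign genes to KEGG pathways, and 2 pathways that hold a pair of the 6 genes were chosen after the values were seen. Complement and coagulation cascades, with C4b and A2m, had 8 listed genes in hippocampus, 5 higher and 3 lower. Beside C4b, F2r, the thrombin receptor (log2 fold change 0.70), and Plat, tissue plasminogen activator (0.66), rose, and Vtn fell. In cortex it had 5 listed genes, of which A2m alone passed. Jak-STAT signalling, with Osmr and Gfap, had 9 listed genes in hippocampus, of which Cdkn1a, a cell cycle inhibitor, rose (1.19) and the kinase Akt2 fell (-0.61). Of its 8 in cortex, Cdkn1a (0.96) and Gfap rose and Akt2 fell (-0.58). Among all listed genes 42.6% passed in hippocampus and 30.8% in cortex, and 272 of 652 and 164 of 561 were higher in BK KO. With so few listed genes each, neither pathway can be set apart from the other listed genes.

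For each gene, the 3 listed genes most like it were found by Pearson r of log2(FPKM + 1) over the 6 libraries of its tissue, among listed genes with a mean FPKM of at least 1. These r are descriptions: the genes were all selected for a genotype difference, which sets most of r, so r after subtracting each genotype's mean is given too. C4b was nearest to Lin54 (r = 0.990, 0.941 after subtraction), Sh3bgrl2 (0.978, 0.901) and Smad9 (0.975, 0.859). Osmr was nearest to Abl2, a tyrosine kinase (0.998, 0.992), Lnx2 (0.982, 0.948) and Glce (0.963, 0.870). Cryab was nearest to 1600002K03Rik (0.986, 0.955), Srpk3 (0.955, 0.853) and Arhgap25 (0.953, 0.849).

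In cortex Gfap was nearest to Dpm3 (0.959, 0.901), Tmem266 (0.951, 0.941) and Serpina3n (0.935, 0.842). A2m was nearest to Ptrf (0.974, 0.940), Pdlim4 (0.972, 0.927) and, like Gfap, Tmem266 (0.970, 0.963). Ednrb was nearest to Fabp7, a fatty acid binding protein of radial glia and astrocytes (0.989, 0.977), Dapp1 (0.964, 0.921) and Isg15 (0.957, 0.916). Fabp7 had 42.1, 49.9 and 24.7 FPKM in WT and 17.7, 23.4 and 25.8 in BK KO, so that, as for Ednrb, WT replicate 3 lay below BK KO replicate 3. Its log2 fold change was -0.73.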

How the data were processed

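Poly-A RNA libraries of hippocampus and cortex from 3 WT and 3 BK KO mice were analysed. The authors compared genotypes within each tissue with DESeq 1.10.1 (DESeq2 is also named) on build mm9, per the submitters' processing notes. The aligner and counter are not given in the sources used here. The deposited tables list genes with an unadjusted p under 0.05 and a log2 fold change beyond 0.58. The deposited FPKM values per library carry no unit name from the authors. The unit was taken from their digits and from the deposited base means, a normalized signal: their ratio to FPKM followed transcript length (GENCODE M21, Spearman rho 0.614 over 607 hippocampus genes and 0.688 over 522 cortex genes). The authors' fold and p columns were not used.

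Each table was fitted whole with limma 3.58.1 in R 4.3.3 (lmFit, eBayes, no trend, no block) on log2(FPKM + 1), which understates changes of low genes. On simulated data 197 of 200 changed genes were recovered among 652 hippocampus genes and 198 of 200 among 561 cortex genes, with 12 of 452 and 7 of 361 unchanged genes called. Simulated levels were set 3 log2 units above the real ones, and planted changes were at least 1 log2 unit. The recovery therefore does not speak for low genes such as Osmr and A2m or for smaller changes. Exact permutation tests, two-sided, used scipy 1.17.1. Named genes were Kcnma1, the 6 genes, the listed members of 16 lists and the 3 nearest genes by r. Gh and the KEGG pathway genes were added after values were seen. The 6 genes and the lists were chosen with earlier results of these data known. The planned tests between tissues need genes listed in both tables, and since 0 of the 6 are, they were not given. Same-numbered WT and BK KO libraries are different mice. All per-library columns matched a sample.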

Additional observations from a re-analysis of the deposited data

How the results depend on the processing

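No gene of the 6 changed sign under any alternative. Members past the threshold numbered 2 in hippocampus and 2 in cortex. Requiring a log2 fold change beyond 1 left 1 in hippocampus (C4b) and 0 in cortex, where Gfap (0.97) came nearest. Requiring an adjusted p under 0.05 left 1 in cortex (A2m), and a mean FPKM of at least 1 left 1 (Gfap), since A2m was then not fitted. Leaving out 1 library gave 1 to 3 in hippocampus (1 without WT replicate 3) and 0 to 2 in cortex. The cortex count was 0 without WT replicate 1 or BK KO replicate 1, and 1 without WT replicate 3 or BK KO replicate 2. Over all listed genes, fits without 1 library called 230 to 282 of 652 in hippocampus and 135 to 180 of 561 in cortex. The adjusted p called 262 and 154 of all listed genes, and the FPKM minimum 268 of 443 and 168 of 345. With the replicate number as a block the member counts were 2 and 2, and 272 and 165 of all listed genes were called. The block lowered the standard error of Gfap from 0.35 to 0.13 and of C4b from 0.26 to 0.11, while that of Ednrb stayed at 0.18. Over all listed genes, same-numbered WT and BK KO libraries did not deviate together (r of 0.0202, 0.084 and -0.0685 in hippocampus and -0.239, 0.125 and -0.216 in cortex). These r cannot exclude that same-numbered mice shared a litter or preparation. Over all listed genes, calls went from 278 to 548 and 537 in hippocampus and from 173 to 408 and 421 in cortex with pseudocounts of 0.1 and 0.01, and to 35 and 25 with a log2 fold change beyond 1. Median centring moved the split of higher to lower calls from 61 and 112 to 129 and 33 in cortex and from 135 and 143 to 156 and 113 in hippocampus. Tests between tissues, with their alternatives, were not run because 0 of the 6 genes are listed in both. Depth is unknown, so the counting error behind Osmr and A2m, near 1 FPKM, could not be set.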
